A study of Mesocricetus auratus with 6 samples.

Results

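The genes described here encode the machinery that brings proteins into mitochondria and shapes the folds of the inner membrane, the cristae. They were chosen by symbol: every golden hamster gene whose symbol begins with Timm, Tomm or Chchd, together with Immt, Samm50, Pam16, Dnajc19, Hspa9, Hspd1, Hspe1, Pmpca, Pmpcb and Grpel1. Of the 16078 genes in the deposited files, 35 met this rule. The rule reads symbols and no measured value. Chchd6, Chchd7, Chchd10, Timm9 and Timm22, which meet the rule in the hamster gene table, and Pam16, Hspe1 and Timm23 were not analysed here.

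Messenger RNA was profiled in BHK21 cells, an established fibroblast-like line from baby hamster kidney (Mesocricetus auratus), for which the labels give the tissue as kidney and the age as one day. Of 6 libraries, 3 came from cells transfected with STYK1/NOK, called STYK1 1 to 3, and 3 from cells transfected with pCMV-Myc, the empty plasmid, called vector 1 to 3. STYK1, also named NOK, is a membrane protein with a kinase-like domain. The series calls it an oncogene and compares messenger RNA profiles with and without it. RNA was harvested at 48 after transfection, with no unit in the labels. The labels name no separate cultures, so the p-values measure only how these libraries scatter, and that scatter may be technical.

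Nearly all mitochondrial proteins are made in the cytosol and imported. They pass the outer membrane through the TOM complex. From there, small TIM chaperones and the TIM22 complex handle carriers, while TIM23 and its motor pull presequence proteins into the matrix, where a peptidase trims them and chaperonins fold them. MICOS holds the cristae junctions, and a CHCHD fold with paired cysteines marks many proteins that are oxidised in the intermembrane space. Most of this machinery is needed in every cell that holds mitochondria.

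Values are FPKM (fragments per kilobase of transcript, scaled to the mapped fragments of the library), which allows levels of different genes to be set side by side. An FPKM value with ± is the mean and SD of the 3 libraries of a group, and ± after a log2 difference is marked as SE. The total number of reads is unknown, so no counting interval can be given. Between 14119 and 14339 genes were above 0 in each library. The FPKM values of a library summed to 554681 to 619840 in the vector group and to 528160 to 542638 in the STYK1 group. Vector 1 stood apart: its Pearson correlation with the other libraries over 11464 tested genes was 0.963 to 0.976, against 0.988 to 0.993 among the others. Main results, and log2 differences given here that leaving it out moves by over 1.5 times, are therefore also given without it. Group means include it. The hamster gene Styk1 was listed at 1.5, 1.8 and 1.89 FPKM in vector 1 to 3 and at 2.04, 2.46 and 2.41 FPKM in STYK1 1 to 3. It did not pass the test (adjusted p = 0.470). The labels do not give the species of the transfected sequence, so these values do not show how much of the plasmid was expressed. Of the fibroblast markers, Vim lay at 3650 to 4141 FPKM, Fn1 at 191 to 229 and Pdgfrb at 35.2 to 39.2, and the 7 with a value summed to 4180 to 4411 in vector and 3919 to 4196 in STYK1 libraries, whereas Col1a1, Col1a2, Col3a1 and Thy1 lay between 0 and 1.02. The 6 kidney epithelium markers with a value summed to 0.68 to 0.98 FPKM in vector and 0.71 to 1.47 in STYK1 libraries. Those of endothelium (3 with a value, mainly Cdh5) summed to 4.89 to 8.58 and 6.73 to 9.46 in the same order. The 5 leukocyte markers summed to 292 to 354 FPKM in vector and 282 to 299 in STYK1 libraries. Nearly all of that was Cd68, and Ptprc, Cd3e and Itgam were between 0 and 0.16. The part of these differences in the results was not tested.

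The import and cristae genes had, for the most part, slightly lower mean FPKM in STYK1/NOK-transfected cells, and none passed the test. The lowest relative to vector were small subunits of the outer membrane translocase (Tomm7, Tomm6 and Tomm5), the intermembrane space chaperones Timm10b and Timm13, and Chchd1. The main chaperones of the matrix, Hspa9 and Hspd1, the MICOS core Immt and the receptor Tomm70 had STYK1 means of 0.985 to 1.09 times the vector mean. All 35 genes entered the test. Tomm20l passed the filter of 1 FPKM through the STYK1 group alone, so it had to be higher there, and the main counts are also given without it.

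At an adjusted p under 0.05, 0 of the 35 genes were called (limma-trend on log2(FPKM + 1), adjusted over 11464 genes, smallest adjusted p = 0.469), as were 0% of all tested genes. At an unadjusted p under 0.05, 8 of the 35 genes (22.9%) were lower in STYK1 libraries, against 4.88% of all tested genes. At the same threshold 1 gene, Tomm20l, was higher, against 4.95% of all tested genes, and without Tomm20l the counts were 8 and 0 of 34. All 3 STYK1 libraries lay below all 3 vector libraries for 11 of the 35 genes (31.4%), against 9.44% of all tested genes. They lay above for 1, again Tomm20l, against 13.6%. The median log2 difference, STYK1 minus vector, was -0.15 for the 35 genes and 0.01 for all tested genes. The mean was lower in STYK1 libraries for 29 of the 35 genes (82.9%) and for 47.3% of all tested genes. Without Tomm20l, 29 of 34 (85.3%) were lower and the median was -0.16. Scaling the libraries to equal FPKM sums moved the median of all tested genes to 0.12 and raised the log2 difference of each of the 35 by 0.05 to 0.11. On that scale 65.7% of the 35 genes and 29.6% of all tested genes had a lower mean. The median of the 35 genes was then -0.04, with 5 genes lower at an unadjusted p under 0.05, against 1.90% of all tested genes. All STYK1 libraries lay above all vector libraries for 5, against 24.5% of all tested genes. With the values as deposited, the count of lower genes was 4 without STYK1 1, against 1.65% of all tested genes, and 5 without STYK1 3, against 3.26%. The unadjusted p of Tomm7, Timm10b, Timm13 and Chchd1 was under 0.05 in all 13 alternatives run, that of Tomm6 in 12, Timm50 in 8, Tomm5 in 7 and Chchd2 in 5. In RNA from whole cultures, less RNA per cell and fewer cells with much of it cannot be told apart.

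**Figure D1:**
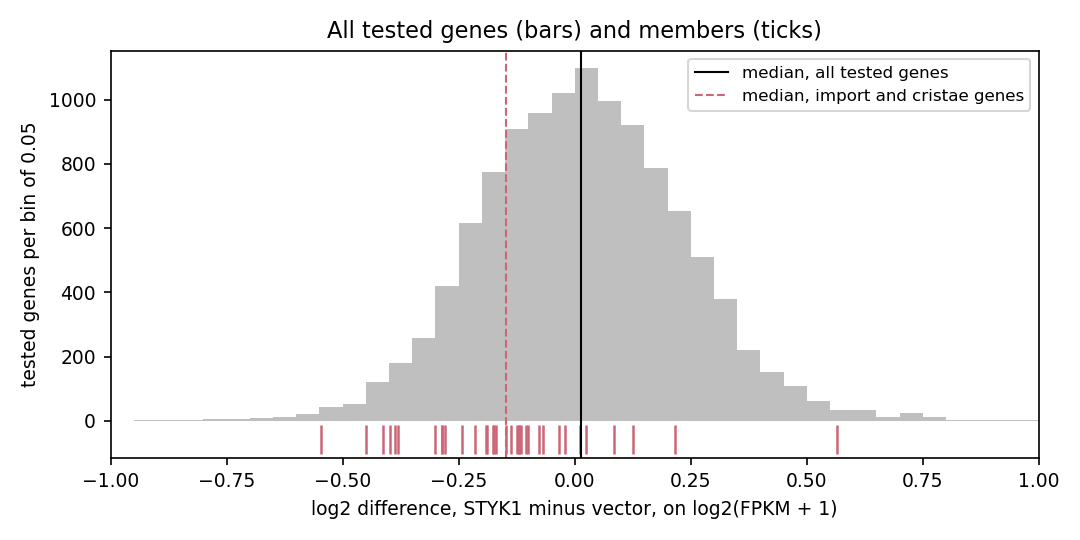
Distribution of the log2 difference, STYK1 minus vector, on log2(FPKM + 1). Grey bars count tested genes, red ticks under the axis are the 35 import and cristae genes, and the lines mark the medians of 0.01 (all tested genes) and -0.15 (the 35 genes). The 34 tested genes beyond 1 log2 unit lie outside the axis. Most ticks lie left of 0 and within the body of the distribution.

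Vector 1 was the highest of the 6 libraries for 26 of the 35 genes (74.3%), against 37.2% of all tested genes. The lowest library was one of the STYK1 group for 29 genes (STYK1 1 for 12, STYK1 2 for 9 and STYK1 3 for 8). Over all 11464 tested genes it was STYK1 1 for 1935, STYK1 2 for 1430 and STYK1 3 for 1561. Relative to the vector mean, the mean level of the 35 genes was 0.14, -0.08 and -0.06 log2 units in vector 1, 2 and 3. It was -0.18, -0.13 and -0.14 in STYK1 1, 2 and 3, below each vector library. These levels were not scaled to equal FPKM sums, which were lower in every STYK1 library than in any vector library. Without vector 1 the median log2 difference was -0.08, with 25 genes lower and 10 higher (9 without Tomm20l). It was 0.02 for all 11464 tested genes, of which 5080 were lower and 6383 higher. The log2 difference became smaller by over 1.5 times for 18 genes, stayed within 1.5 times for 13 and took the other sign for 4 (Tomm22, Timm29, Timm21 and Timm44). At an unadjusted p under 0.05, 7 genes were lower, against 4.54% of all tested genes. These 7 were among the 8 of all libraries, with Tomm5 the exception. The STYK1 libraries lay below vector 2 and 3 for the same 11 genes, against 11.8% of all tested genes (9.44% with vector 1). Leaving out a library can only keep or raise this count, so these 11 were bound to remain. The smallest adjusted p of the 35 genes was 0.418, and 0% of all tested genes were called. With libraries weighted by their quality, where vector 1 received a weight of 0.129, limma called Tomm7 (adjusted p = 0.0391) and Timm10b (adjusted p = 0.0381) lower. In that fit 0.157% of all tested genes were called lower.

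**Figure D2:**
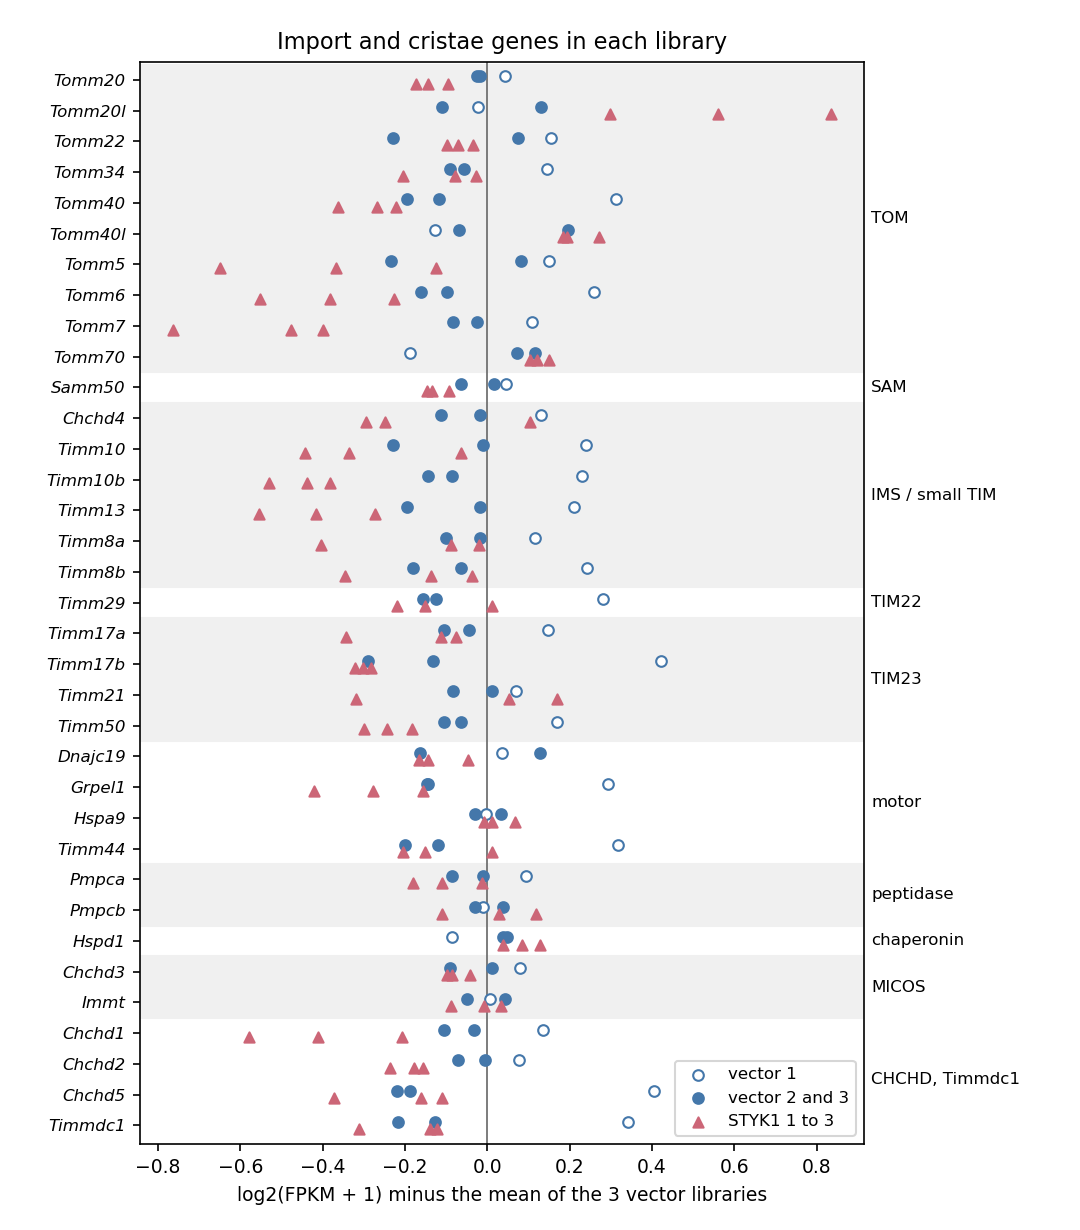
Level of each of the 35 genes in each library, as log2(FPKM + 1) minus the mean of the 3 vector libraries, grouped by role. Open circles are vector 1, filled circles vector 2 and 3, and triangles the STYK1 libraries. Vector 1 is the rightmost point for 26 genes, and the triangles lie left of every circle for 11.

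The TOM complex is the entry gate. Tomm40 forms its pore, Tomm20, Tomm22 and Tomm70 are receptors, and Tomm5, Tomm6 and Tomm7 are small subunits that assemble and stabilise it. Of 10 genes with TOM names, 7 had a lower mean in STYK1 libraries, 3 of them at an unadjusted p under 0.05 (Tomm7, Tomm6 and Tomm5), and the median log2 difference was -0.12. The 3 with a higher mean include Tomm20l. Without vector 1 the median was -0.07, with 6 lower and 4 higher and 2 of the lower ones at an unadjusted p under 0.05. With equal FPKM sums 5 had a lower mean, since Tomm22 and Tomm34 changed side. Tomm7 (Gene ID 101839709) measured 137, 120 and 125 FPKM in vector 1 to 3 and 74.6, 91.2 and 96.2 FPKM in STYK1 1 to 3. The 3 STYK1 libraries all lay well below the lowest vector library. The means were 127 ± 8.80 and 87.3 ± 11.3 FPKM (SD, n = 3 each), 1.46-fold lower. The fitted log2 difference, -0.55 ± 0.11 (SE), had a 95% interval of -0.80 to -0.29 (limma-trend, unadjusted p = 0.00112, adjusted p = 0.469). Without vector 1 it was -0.49.

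Tomm6 (Gene ID 101830599) measured 145, 108 and 113 FPKM in vector 1 to 3 and 82.1, 92.5 and 103 FPKM in STYK1 1 to 3. The groups did not overlap, but STYK1 3 came close to vector 2. Its log2 difference came to -0.39 ± 0.13 (SE, 95% interval -0.69 to -0.08, unadjusted p = 0.0188), and -0.26 without vector 1. Without STYK1 1 it was -0.30 (unadjusted p = 0.0768). Tomm5 (Gene ID 101844939) measured 45.5, 43.3 and 34.6 FPKM with empty vector against 25.7, 37.4 and 31.4 with STYK1/NOK. Here STYK1 2 lay above vector 3, so the groups overlapped. On the log2 scale it differed by -0.38 ± 0.15 (SE, 95% interval -0.74 to -0.02, unadjusted p = 0.0386, and 0.0802 without vector 1). Without STYK1 1 it was -0.25 (unadjusted p = 0.149).

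The receptors and the pore had smaller fitted differences than these small subunits. Tomm20, the presequence receptor, was the most abundant of these, at 190 ± 4.99 FPKM under vector and 172 ± 4.88 under STYK1, a log2 difference of -0.14 with an interval of -0.31 to 0.03. Tomm40 measured 54.8 ± 11 FPKM under vector and 44.3 ± 2.25 under STYK1, a log2 difference of -0.28 that was -0.13 without vector 1. For both genes the 3 STYK1 libraries lay below all vector libraries with the values as deposited. Under equal FPKM sums the log2 difference was -0.026 for Tomm20 and -0.175 for Tomm40. Quantile normalization gave -0.045 and -0.255 in the same order. Tomm22, the central receptor, measured 85.2 ± 11.7 FPKM under vector and 80.8 ± 1.79 under STYK1. Tomm70, which receives carrier precursors with their cytosolic chaperones, had a slightly higher mean in STYK1 libraries, at 73.1 ± 1.23 against 67.2 ± 7.53 FPKM, with overlapping groups. Its log2 difference of 0.125 was 0.031 without vector 1. Tomm34, a cytosolic co-chaperone, measured 31.3 ± 2.91 FPKM with empty vector against 29.0 ± 1.86 with STYK1/NOK. Tomm40l, a paralog of the pore, measured 10.4 ± 1.41 FPKM under vector and 12.2 ± 0.446 under STYK1, again overlapping. Tomm20l (Gene ID 101833933), a paralog of the receptor, was the least abundant of the 35 genes, at 0.53, 0.70 and 0.44 FPKM with empty vector against 1.77, 0.91 and 1.29 with STYK1/NOK. Tomm20l passed the filter through the STYK1 group alone, so its direction was fixed in advance. It differed by 0.57 ± 0.19 log2 units (SE, unadjusted p = 0.0156), on a scale that understates the change of genes with low FPKM. Without STYK1 1 it was 0.43 (unadjusted p = 0.0720).

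**Figure D3:**
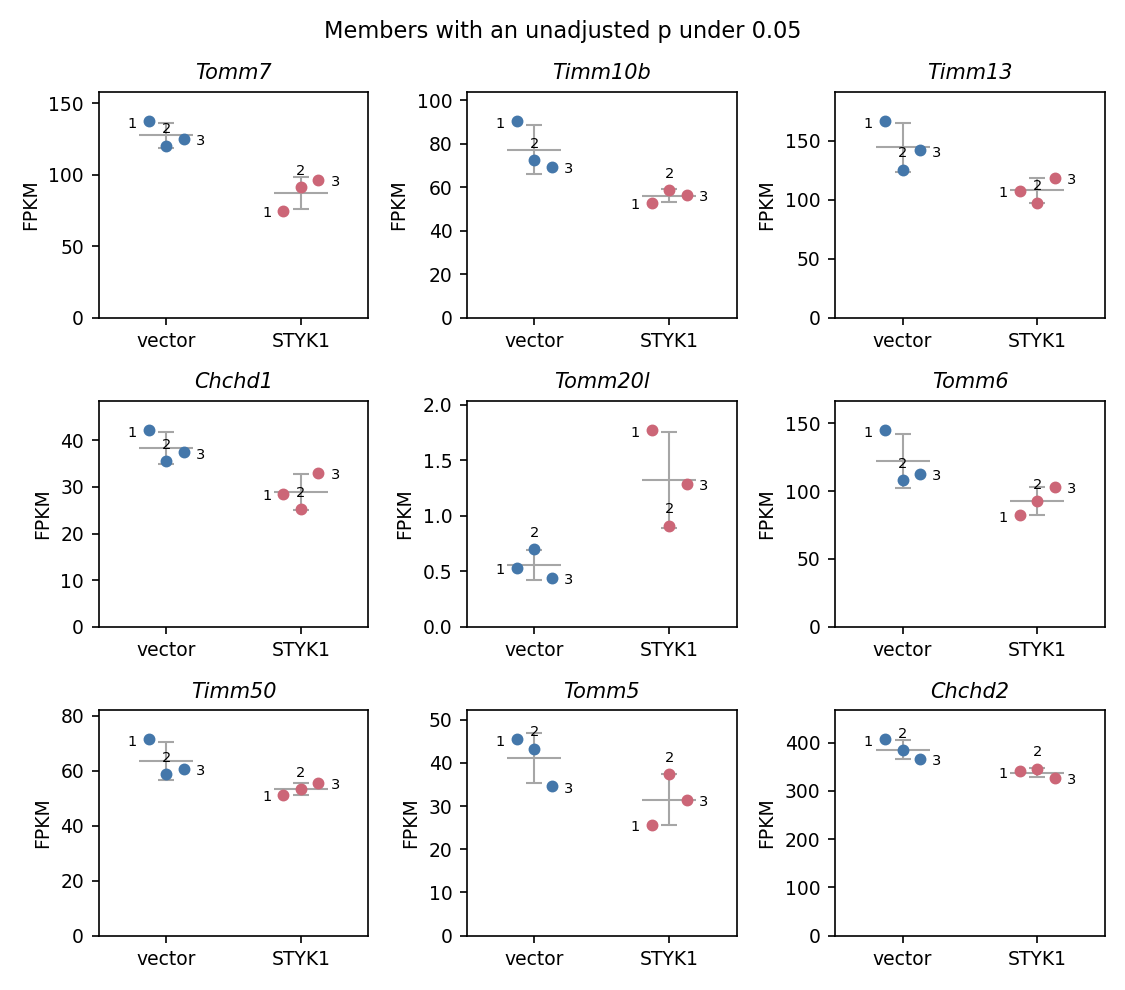
FPKM of the 9 genes with an unadjusted p under 0.05 in each library, numbered by replicate, with the group mean and SD (n = 3) as grey lines. In 8 of the panels the STYK1 mean is lower, and in that of Tomm20l it is higher. Tomm20l passed the filter through the STYK1 group alone, so its mean had to be higher there. The groups overlap for Tomm5 and not for the other 8.

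Samm50 (Gene ID 101843656), the core of the machinery that inserts beta-barrel proteins into the outer membrane, measured 69.3, 64.2 and 67.9 FPKM under vector and 61.0, 60.5 and 62.8 under STYK1. With the values as deposited the groups did not overlap, but the step between them was small. The fitted log2 difference, -0.13 ± 0.08 (SE), had a 95% interval of -0.30 to 0.05 (unadjusted p = 0.140). Under equal FPKM sums it was -0.015 (limma-trend, unadjusted p = 0.849).

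In the intermembrane space, Chchd4 (the oxidoreductase also called MIA40) forms the disulphides of incoming proteins, and the small TIM chaperones escort hydrophobic ones between the membranes. All 6 genes of this group had a lower mean in STYK1 libraries, 2 of them at an unadjusted p under 0.05, with a median log2 difference of -0.23 (-0.14 without vector 1). Timm10b (Gene ID 101823253), which sits at the TIM22 complex, measured 90.3, 72.4 and 69.4 FPKM with empty vector against 52.9, 58.7 and 56.5 with STYK1/NOK. Vector 1 was far above the rest, yet vector 2 and 3 also lay above all STYK1 libraries. Its log2 difference came to -0.45 ± 0.11 (SE, 95% interval -0.71 to -0.19, unadjusted p = 0.00374), and -0.34 without vector 1. Timm13 (Gene ID 101825777), a partner of Timm8 proteins, measured 166, 125 and 142 FPKM under vector and 107, 97.4 and 119 under STYK1. Again no STYK1 library reached the vector range. On the log2 scale it differed by -0.41 ± 0.12 (SE, 95% interval -0.69 to -0.14, unadjusted p = 0.00897), and -0.31 without vector 1.

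Timm10 (Gene ID 101843812), which forms a ring with Timm9, measured 61.6, 51.6 and 44.2 FPKM with empty vector against 41.0, 49.7 and 38.0 with STYK1/NOK, with STYK1 2 inside the vector range. It differed by -0.28 ± 0.14 log2 units (SE, unadjusted p = 0.0860), and by -0.16 without vector 1 (unadjusted p = 0.208). The group means of Timm8b were 83.4 ± 13.1 FPKM under vector and 73.5 ± 8.01 under STYK1. Those of Timm8a were 41.5 ± 3.25 and 37.0 ± 5.18 FPKM, and those of Chchd4 were 16.9 ± 1.53 and 15.2 ± 2.54 FPKM, in the same order. All 3 overlapped between the groups.

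In the inner membrane, Timm29, a subunit of the TIM22 carrier translocase (Gene ID 101842086), measured 23.7, 17.3 and 17.7 FPKM with empty vector against 17.3, 19.5 and 16.5 with STYK1/NOK. Only vector 1 stood above the STYK1 range. The log2 difference was -0.12 ± 0.14 (SE), and 0.02 without vector 1. In TIM23, Timm17a and Timm17b are alternative channel subunits, Timm50 is the receptor that takes over presequences, and Timm21 links the complex to TOM and the respiratory chain. All 4 genes had a lower mean in STYK1 libraries, 1 at an unadjusted p under 0.05, with a median of -0.21 (-0.10 without vector 1). Timm21 had a higher mean under equal FPKM sums. Timm50 (Gene ID 101835730) measured 71.4, 58.8 and 60.5 FPKM under vector and 51.3, 53.3 and 55.7 under STYK1, with no overlap. The fitted log2 difference, -0.24 ± 0.10 (SE), had a 95% interval of -0.47 to -0.02 (unadjusted p = 0.0360), and -0.16 without vector 1.

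Timm17b (Gene ID 101837020) measured 60.8, 36.7 and 41.1 FPKM with empty vector against 35.9, 36.9 and 36.4 with STYK1/NOK. Vector 1 lay far above the other 5 libraries. The difference was -0.30 ± 0.17 (SE) on the log2 scale and -0.09 without it. Timm17a (Gene ID 101829344) measured 69.2, 57.9 and 60.5 FPKM under vector and 49.0, 57.6 and 59.1 under STYK1, and the groups overlapped. Its log2 difference was -0.18, and -0.10 without vector 1. Timm21 had nearly the same mean in both groups, at 29.5 ± 1.64 FPKM with empty vector against 29.1 ± 5.09 with STYK1/NOK.

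The import motor is driven by Hspa9, the mitochondrial Hsp70 (mortalin), which Timm44 docks at the channel. Grpel1 is its nucleotide exchange factor, and Dnajc19 is a J-protein of the motor. Of 4 motor genes, 3 had a lower mean in STYK1 libraries, none at an unadjusted p under 0.05, and the median was -0.12. Without vector 1 the median was -0.04, with 2 lower and 2 higher. Hspa9 was the second most abundant of the 35 genes, and its groups overlapped, at 201 ± 4.42 FPKM under vector and 204 ± 5.57 under STYK1. The interval of its log2 difference ran from -0.14 to 0.19 around 0.02, or 0.135 with equal FPKM sums and -0.005 with libraries centred on their medians. Grpel1 (Gene ID 101839992) measured 33.1, 24.2 and 24.2 FPKM with empty vector against 19.8, 24 and 22 with STYK1/NOK. The groups were set apart by a narrow margin at STYK1 2. The log2 difference was -0.28 ± 0.14 (SE, unadjusted p = 0.0769), and -0.14 without vector 1. Timm44 (Gene ID 101839081) measured 43.1, 29.8 and 31.6 FPKM under vector and 29.7, 34.6 and 30.9 under STYK1, and its log2 difference of -0.12 was 0.04 without vector 1. Dnajc19 (Gene ID 101838043) measured 51.9, 45.1 and 55.4 FPKM with empty vector against 45.7, 45.0 and 49.0 with STYK1/NOK, overlapping.

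Once in the matrix, presequences are cut off by a peptidase of which Pmpcb is the catalytic and Pmpca the substrate-binding subunit. Pmpca (Gene ID 101838618) measured 64.0, 56.3 and 59.4 FPKM under vector and 55.3, 59.3 and 52.7 under STYK1. Pmpcb (Gene ID 101832128) measured 48.0, 47.3 and 49.7 FPKM with empty vector against 49.3, 44.7 and 52.5 with STYK1/NOK. Both genes overlapped between the groups, with log2 differences of -0.10 ± 0.09 and 0.01 ± 0.09 (SE). That of Pmpca was -0.054 without vector 1 and 0.009 under equal FPKM sums. That of Pmpcb was 0.007 without vector 1 and -0.016 under median centring. Hspd1 (Gene ID 101844216), the chaperonin Hsp60, measured 144, 157 and 158 FPKM under vector and 167, 157 and 162 under STYK1. Vector 1 was its lowest library, unlike for most of the 35 genes. Its log2 difference came to 0.08 ± 0.08 (SE, 95% interval -0.10 to 0.26), with 0.04 without vector 1 and 0.195 under equal FPKM sums.

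Of the cristae genes, Immt (Gene ID 101842623), which encodes the MICOS core subunit mitofilin, measured 57.8, 59.4 and 55.6 FPKM with empty vector against 58.9, 54.1 and 57.2 with STYK1/NOK. Its partner Chchd3 (Gene ID 101839500) measured 102, 97.2 and 90.6 FPKM under vector and 90.9, 93.7 and 90.1 under STYK1. The groups overlapped for both. The log2 differences were -0.02 for Immt, with an interval of -0.20 to 0.16, and -0.08 for Chchd3, with an interval of -0.26 to 0.11. That of Chchd3 was -0.036 without vector 1. Both were above 0 under equal FPKM sums, at 0.089 and 0.035.

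The remaining CHCHD proteins have other roles, and all 4 genes of this group, including Timmdc1, had a lower mean in STYK1 libraries, 2 at an unadjusted p under 0.05. Chchd1 (Gene ID 101834583), a protein of the mitochondrial ribosome, measured 42.1, 35.5 and 37.4 FPKM with empty vector against 28.5, 25.3 and 33.0 with STYK1/NOK. No STYK1 library reached the vector range. On the log2 scale it differed by -0.40 ± 0.12 (SE, 95% interval -0.67 to -0.13, unadjusted p = 0.00952), and -0.33 without vector 1. Chchd2 (Gene ID 101835704), linked to cristae organisation and to expression of a cytochrome oxidase subunit, was the most abundant of the 35 genes. It measured 407, 384 and 367 FPKM under vector and 341, 346 and 327 under STYK1, with no overlap. The fitted log2 difference, -0.19 ± 0.08 (SE), had a 95% interval of -0.37 to -0.01 (unadjusted p = 0.0449), and -0.15 without vector 1. It was -0.078 under equal FPKM sums and -0.073 under quantile normalization (unadjusted p = 0.300 in both). Timmdc1 (Gene ID 101841711), an assembly factor of respiratory complex I despite its name, measured 64.8, 43.7 and 46.6 FPKM with empty vector against 40.8, 46.1 and 46.7 with STYK1/NOK. Only vector 1 lay outside the STYK1 range. It differed by -0.19 ± 0.15 log2 units (SE), and -0.02 without vector 1. Chchd5 showed the same layout, at 31.3 ± 8.31 FPKM under vector and 26.3 ± 2.58 under STYK1, with a log2 difference of -0.21 and of -0.01 without vector 1.

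**Figure D4:**
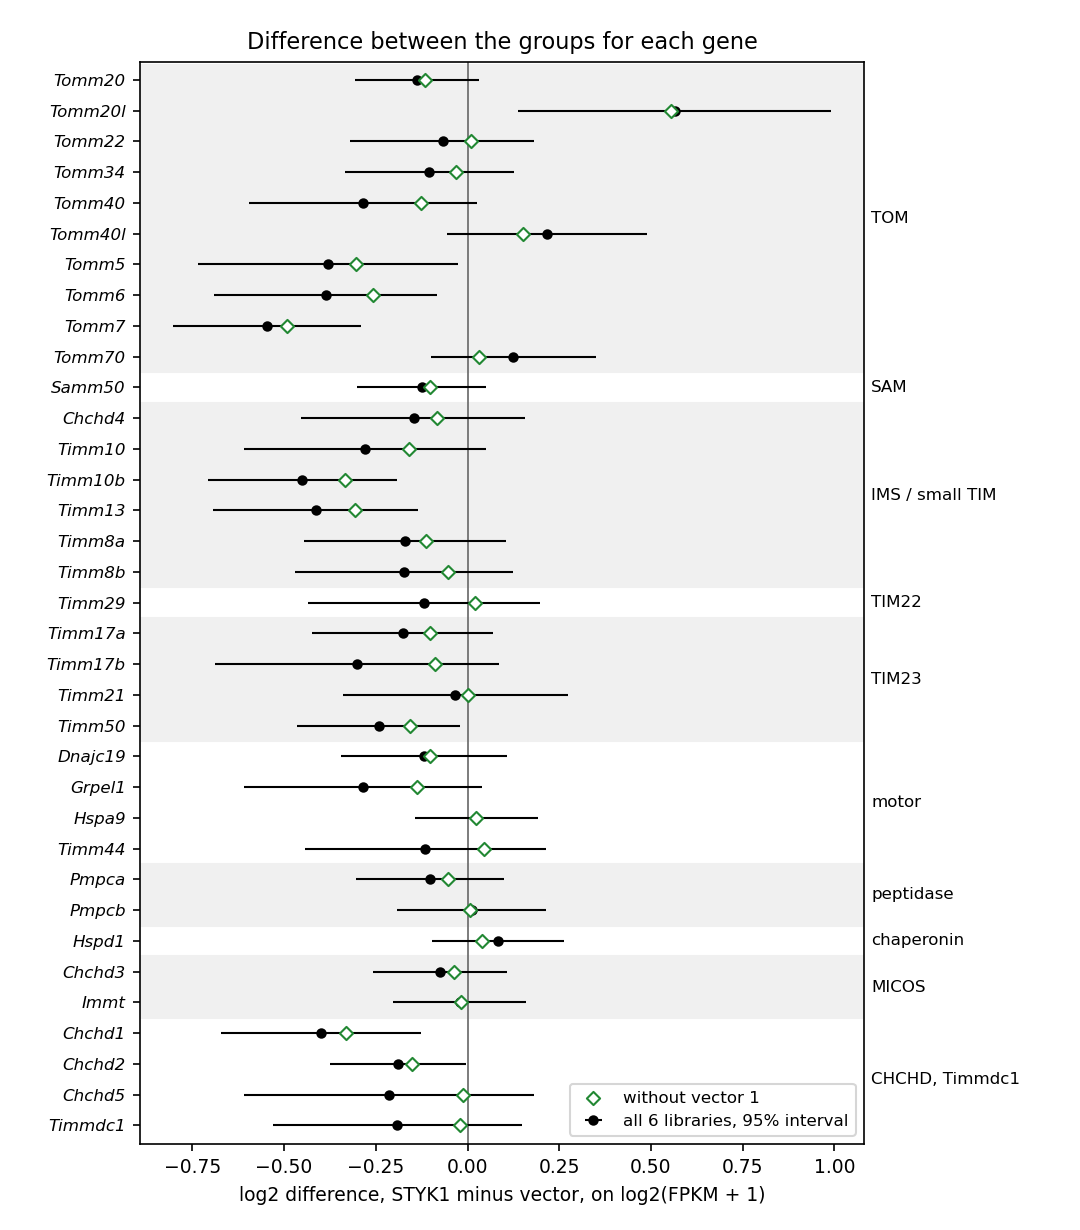
Log2 difference, STYK1 minus vector, of each of the 35 genes. Black points with bars are the estimate and its 95% interval from limma-trend on all 6 libraries, not adjusted for the number of genes, and green diamonds the estimate without vector 1. The intervals of 8 genes lie below 0 and that of Tomm20l above it, and most diamonds lie nearer to 0 than the points. Tomm20l passed the filter through the STYK1 group alone, so its direction was fixed in advance.

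Because FPKM sums differed between libraries, 12 ratios of 2 genes within a library were also taken. In these a factor common to all genes of a library cancels, while a library difference that varies from gene to gene does not. These pairs were chosen after their values had been seen, and they carry no test. The ratio of Tomm7 to the receptor Tomm20 was 0.702, 0.642 and 0.672 in vector and 0.436, 0.514 and 0.573 in STYK1 libraries. That of Tomm7 to Tomm70 was 2.34, 1.70 and 1.72 in vector and 1.04, 1.23 and 1.32 in STYK1 libraries. In both ratios all STYK1 libraries lay below all vector libraries, while the ratio of Tomm7 to the pore Tomm40 overlapped, at 2.36 ± 0.312 in vector and 1.98 ± 0.319 in STYK1 libraries. Grpel1 relative to its partner Hspa9 was 0.165, 0.123 and 0.117 in vector and 0.0989, 0.114 and 0.108 in STYK1 libraries, without overlap. Timm13 to Timm8b, Timm10b to Timm10, Timm50 to Timm17a, Pmpca to Pmpcb, Chchd3 to Immt, Tomm6 to Tomm20 and Tomm40 to Tomm20 overlapped between the groups.

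**Figure D5:**
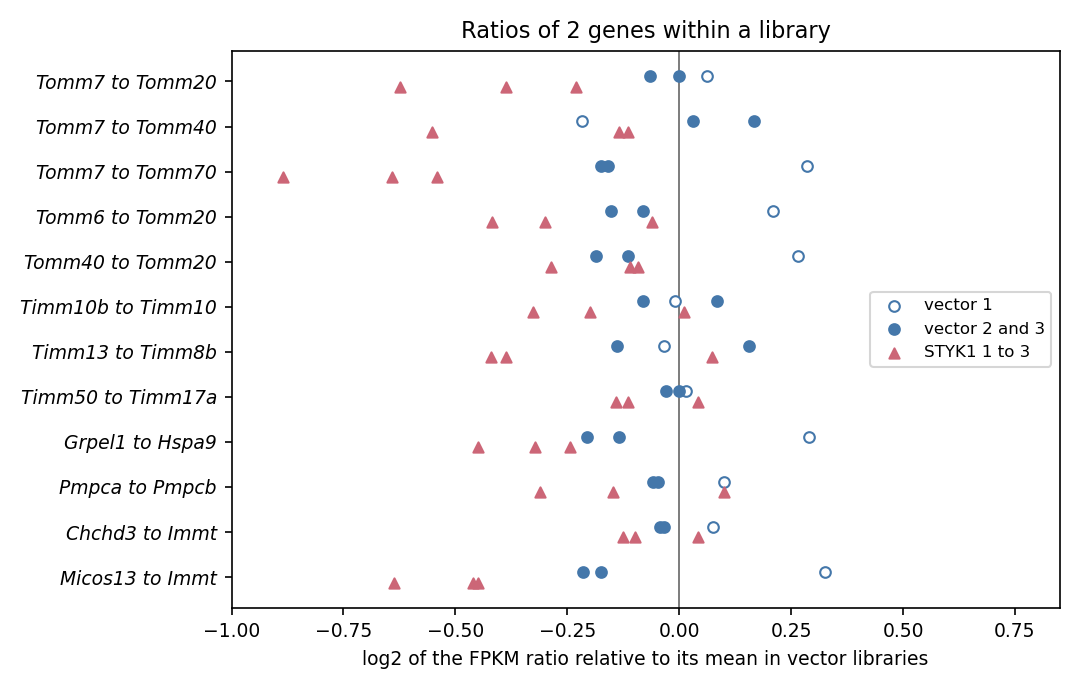
FPKM ratio of 2 genes within a library, as log2 relative to the mean ratio of the vector libraries. Symbols are as in the plot of levels by library. The STYK1 libraries lie left of all vector libraries for 4 of the 12 ratios: Tomm7 to Tomm20, Tomm7 to Tomm70, Grpel1 to Hspa9 and Micos13 to Immt. The pairs were chosen after their values had been seen, and the share over other gene pairs was not computed.

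Other genes of import, inner membrane shaping and matrix protein maturation were read from a separate list of 42 symbols, of which 37 had a value and 35 were tested. Of the 35, 0 passed the test, as did 0% of all tested genes. At an unadjusted p under 0.05, 4 had a lower mean, against 4.88% of all tested genes, and 0 a higher one, against 4.95%. Whatever their p, 21 (60.0%) were on the lower side, against 47.3% of all tested genes, and 14 on the higher side. Among the 21, Grpel2 measured 2.09, 4.12 and 0 FPKM in vector and 0, 2.15 and 0 in STYK1 libraries. Grpel2 passed the filter through the vector group alone, so its direction was fixed in advance. The median log2 difference of the 35 was -0.11, -0.06 without vector 1 and -0.003 with equal FPKM sums. Dnajc15 and Immp1l did not pass the filter. Micos13 (Gene ID 101830499), a MICOS subunit at the cristae junction, measured 235, 171 and 156 FPKM with empty vector against 123, 129 and 135 with STYK1/NOK. All STYK1 libraries lay below the vector range. Its log2 difference came to -0.51 ± 0.15 (SE, 95% interval -0.85 to -0.18, unadjusted p = 0.00749), and -0.34 without vector 1. Its ratio to Immt was 4.07, 2.88 and 2.80 in vector and 2.09, 2.38 and 2.36 in STYK1 libraries.

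Romo1 (Gene ID 101840492), a small inner membrane protein of the TIM23 complex, measured 190, 150 and 156 FPKM under vector and 114, 154 and 128 under STYK1, with STYK1 2 inside the vector range (unadjusted p = 0.0401). Atp5mg and Atp5me encode subunits g and e of ATP synthase, which hold its dimers together at the cristae rims. Atp5mg (Gene ID 101835574) measured 335, 292 and 298 FPKM with empty vector against 277, 268 and 257 with STYK1/NOK, without overlap (unadjusted p = 0.0431). Atp5me (Gene ID 106021718) measured 237, 181 and 176 FPKM under vector and 136, 144 and 184 under STYK1, with overlap (unadjusted p = 0.0463). Their log2 differences were -0.33 for Romo1, -0.21 for Atp5mg and -0.35 for Atp5me, and -0.22, -0.15 and -0.21 in the same order without vector 1. That of Atp5mg was -0.093 under equal FPKM sums (unadjusted p = 0.225) and -0.070 under quantile normalization (unadjusted p = 0.350). Of 13 alternatives, the unadjusted p was under 0.05 in 13 for Micos13 and in 6 each for Romo1, Atp5mg and Atp5me.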

How the data were processed

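RNA was extracted with Trizol and libraries were made from 1 ug of total RNA with the Illumina TruSeq kit, per the labels' protocols. The values deposited by the authors are FPKM, 1 per gene and library, per the file headers. The submitters' processing notes list Bowtie 0.12.2 and, as builds, mm8 and mm9 (mouse), without a role. Not given in the sources used here were the program behind the FPKM, the use of strand and the treatment of reads shared by gene copies. Paralogs (Timm17a and Timm17b, Tomm20 and Tomm20l, Tomm40 and Tomm40l), genes with pseudogenes and overlapping genes therefore have uncertain values.

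Gene IDs were matched to RefSeq symbols of BCM_Maur_2.0 (15049 of 16078 matched). The 11464 genes whose vector or STYK1 mean reached 1 FPKM were fitted with limma-trend (limma 3.58.1, R 4.3.3, robust) on log2(FPKM + 1). P-values are two-sided, with Benjamini-Hochberg adjustment over all of them, and 95% intervals come from the same fit. The script was tested on simulated data with independent noise for each gene. No simulated library stood apart as vector 1 did, so that test does not cover this feature of the data. Members, lists and tests were chosen with earlier results of these data known. Genes given library by library were, in each role, up to 3 with the smallest p, and all others with an unadjusted p under 0.05. The highest and lowest of the list were also given, with those of the second list at p under 0.05. Styk1, Opa1 and Yme1l1 were given outside this rule. Alternatives were another pseudocount, no filter, 3 scalings, a replicate block, quality weights and leaving out each library. Replicate numbers recur in both groups, but no label says that they pair the libraries, so no pairing was used. Deviations from the group mean correlated at -0.27, -0.16 and 0.11 for libraries of the same number. For libraries of different numbers the correlations ran from -0.28 to 0.28. With 3 libraries per group, these values cannot show whether the libraries were paired.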

Additional observations from a re-analysis of the deposited data

How the results depend on the processing

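Over all alternatives run, the median log2 difference of the 35 genes stayed below 0, between -0.20 and -0.042. Equal FPKM sums, which moved the median of all tested genes from 0.01 to 0.12, gave -0.042 for the 35 genes, 5 genes lower at an unadjusted p under 0.05, 7 genes with all STYK1 libraries below (3.95% of all tested genes) and 5 with all above, and a median of -0.003 for the second list. That scaling also gave log2 differences of 0.035 for Chchd3, 0.089 for Immt and 0.009 for Pmpca. Quantile normalization gave 3 genes with all STYK1 libraries above (11.7% of all tested genes), and 0.008 for Immt. Median centring gave -0.016 for Pmpcb. The cause of these changes of sign was not tested. Quality weights called 24 of all genes and 2 of the 35. With the replicate block, 6 of the 35 genes were lower at an unadjusted p under 0.05, against 3.32% of all tested genes, and 0 were called. No label says that the numbers pair the libraries.

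Leaving out 1 library gave 0 to 2 calls over all genes (2 without STYK1 1, STYK1 3 or vector 3) and 0 among the 35. At an unadjusted p under 0.05 it gave 4 genes lower without STYK1 1, where 1.65% of all tested genes were, 5 without STYK1 3 (3.26%) and up to 9 without vector 3 (7.01%). Higher genes numbered 0 without STYK1 1 (1.42% of all tested genes) to 2 without vector 3 (7.89%). The counts of the 35 genes were lowest and highest where those over all genes were. Genes with all STYK1 libraries above numbered 1 to 3, against 16.6% to 20.6% of all tested genes. The log2 difference ran from -0.048 to 0.012 for Immt, -0.041 to 0.073 for Pmpcb, -0.197 to 0.020 for Timm29 and -0.214 to 0.044 for Timm44. Of 351 alternative values of the genes named by the rule, 11 changed sign and 2 reached an adjusted p under 0.05. The other 338 kept their direction and an adjusted p of 0.05 or more. None of these genes had passed in the main fit, and crossings of the unadjusted threshold were not part of this count. Read depth was not given, which leaves the counting error of weakly expressed genes such as Tomm20l unknown.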

Other observations

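The FPKM of the 35 genes summed to 2891, 2542 and 2577 in vector 1 to 3 and to 2321, 2398 and 2383 in STYK1 1 to 3. As a share of all FPKM in the library this was 0.466%, 0.458% and 0.462% in vector and 0.439%, 0.452% and 0.439% in STYK1 libraries. The 2 sets of shares did not overlap, and the lowest vector value and the highest STYK1 value lay close together. In the second list, the inner membrane fusion GTPase Opa1 and the protease Yme1l1, which cleaves OPA1, had higher values in all STYK1 than in all vector libraries. That held for 4 of the 35 tested genes of this list (also Maip1 and Pitrm1), against 13.6% of all tested genes. The reverse held for 8, against 9.44%. Of the 15 genes listed as MICOS partners and inner membrane shaping, which include Opa1 and Yme1l1, 8 had a lower and 7 a higher mean. Opa1 measured 31.2, 37.2 and 36.4 FPKM in vector and 41.8, 39.7 and 39.6 FPKM in STYK1 libraries (unadjusted p = 0.0607, limma-trend). Yme1l1 measured 34.2, 42.2 and 39.2 FPKM in vector and 43.8, 43.7 and 47.1 FPKM in STYK1 libraries (unadjusted p = 0.0572). Vector 1 was the lowest library for both, and without it the log2 differences were 0.13 and 0.14, against 0.21 and 0.22 with it. The genes were picked after their values had been seen.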
